A study of Mus musculus with 6 samples.

Results

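The genes described here encode the contractile apparatus of smooth muscle and the 4 tropomyosins. They are the actins Acta2 and Actg2, the myosin heavy chain Myh11, the regulatory light chain Myl9, the actin-bundling protein transgelin (Tagln), calponin 1 (Cnn1), and Tpm1, Tpm2, Tpm3 and Tpm4. All 10 were found by gene name among the 54532 genes of the deposited table. They were selected by name from earlier results of this same comparison, so their differences are given as a description, with no p-value. Whole liver was sequenced in 3 libraries from knockout mice, in which Notch1 is deleted in hepatocytes. Another 3 libraries came from control mice with floxed Notch1 alleles, and neither group was treated. No label says that each library is a separate mouse. The sources used here name neither the driver of the deletion nor the sex and age of the mice. No label spells out the column name NC; these 3 columns were read as controls because the other 3 are named KO.

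Smooth muscle contracts when phosphorylation of the myosin light chain lets myosin filaments pull on actin filaments, along which tropomyosin is wound. In liver, smooth muscle surrounds the branches of the portal vein and hepatic artery, while stellate cells and portal fibroblasts take up Acta2 when they become myofibroblasts, and mesothelial cells cover the surface of the organ. Tropomyosins and Myl9 are also part of the cytoskeleton of cells that are not muscle. Transcription of most of these genes is driven by serum response factor (SRF), bound to a motif called the CArG box, with its coactivators of the myocardin family.

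The sequences upstream of Acta2 and Myl9 show this motif in the smooth muscle genes with the highest levels among the 6 contractile members. They come from RefSeq on GRCm38.p6 and run 5′ to 3′ on the strand of the gene; capitals mark CArG boxes, either exact or with 1 C or G among the central A and T bases. The Acta2 stretch is chr19:34255374-34255623, minus strand, and ends 1 base before the RefSeq start site. The Myl9 stretch is chr2:156775214-156775419, plus strand, and ends 45 bases before it.
Acta2: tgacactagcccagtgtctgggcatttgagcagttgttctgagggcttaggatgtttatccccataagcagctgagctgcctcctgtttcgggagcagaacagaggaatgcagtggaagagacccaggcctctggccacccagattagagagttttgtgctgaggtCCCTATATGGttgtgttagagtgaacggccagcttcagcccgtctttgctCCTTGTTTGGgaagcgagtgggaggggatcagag
Myl9: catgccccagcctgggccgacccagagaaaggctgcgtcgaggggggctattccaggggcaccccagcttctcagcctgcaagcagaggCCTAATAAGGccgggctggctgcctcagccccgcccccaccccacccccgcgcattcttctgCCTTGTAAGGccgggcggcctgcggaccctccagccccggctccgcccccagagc

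In windows from 250 bases before to 50 bases after the start site, Myl9 had 1 exact CArG box, at -161, and 1 with a G, at -99. Acta2 had none that was exact and 2 of the relaxed form, at -84 and -34. On both strands, 1.63% of 32851 promoter windows of the same length held an exact box and 8.5% held the relaxed form. Both Tpm3 windows held 1 relaxed box, and the windows of Tpm1, Tpm2, Tpm4 and Cnn1 held neither form; a window without a match says nothing of the factor. TGGGAA, the core motif of the Notch partner Rbpj, occurred once in the Acta2 window and at 2 places in that of Tpm1, and 25.6% of all windows held it. CATTCC, the motif of TEAD factors, occurred once in the Acta2 and once in the Tpm1 window, as in 14.7% of all windows. The Acta2 match of TGGGAA, at -27, overlaps the box at -34.

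Levels are in FPKM, a read count divided by gene length and by a factor for library size, and the libraries held 15612924 to 17511961 reads in genes. Notch1 measured 0.301, 0.540 and 0.292 FPKM in the knockouts and 0.618, 0.965 and 0.854 FPKM in the controls, so the groups did not overlap; this is a value for whole liver and all exons. Hepatocyte markers dominated every library. Their sum over 8 genes was 34745 to 45278 FPKM in the knockouts and 47180.3 to 54855 FPKM in the controls, without overlap. Only Alb, the most abundant of the 8, lay lower in every knockout, as did 10.6% of the 12022 genes averaging 0.5 FPKM or more. It measured 20452 to 29086 FPKM in the knockouts and 29979 to 37515 FPKM in the controls. Knockout means were higher for 2 of the 8 genes and lower for 6. The part of this sum in the results below was not tested. Replicates are separate libraries of each group, and nothing in the labels says more of how the mice were raised. Values below are listed for replicates 1, 2 and 3.

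Means were higher in the knockouts for all 10 members, but the groups were apart in only 3 of them, Tpm1, Tpm3 and Tpm4. In 9.2% of the 12022 genes tested, those averaging 0.5 FPKM or more, all knockouts lay above all controls, and in 10.6% all lay below. None of the 6 members that reached that level passed an adjusted p of 0.05 by limma, where 0.025% of the genes tested did (3 genes, or 0 with the replicate number as a block). Set side by side by replicate number, an order looked at after seeing the data, Acta2 and Tagln as well as Tpm1, Tpm3 and Tpm4 were higher in the knockout of each of the 3 pairs, as were 18.9% of the genes tested. As the members were chosen with this contrast known, nothing is read from these counts.

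**Figure D1:**
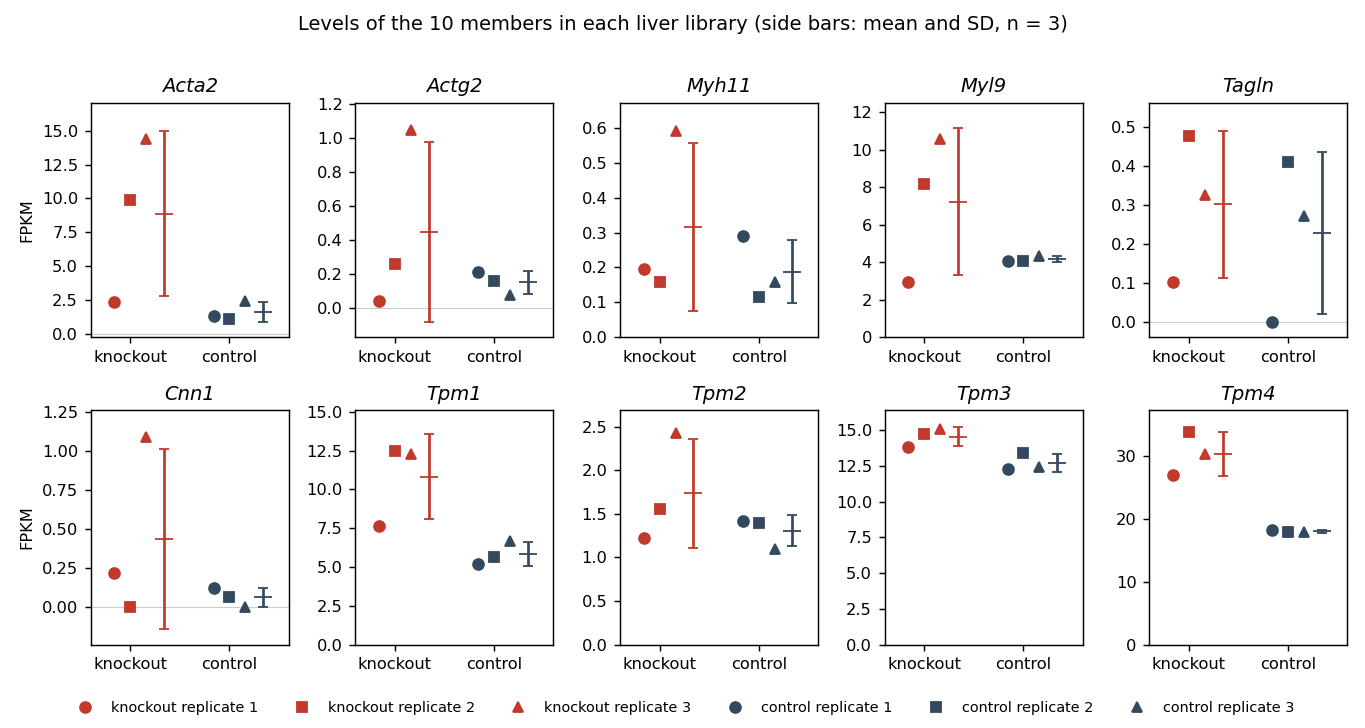
Level of each of the 10 genes in FPKM (linear vertical axis, scaled per gene) in 3 knockout (red) and 3 control (dark blue) liver libraries; symbols give the replicate number and side bars the mean and SD. Tpm4, Tpm3 and Tpm1 are the genes whose knockout points all lie above the control points, while knockout 1 lies among or below the controls for Acta2 and Myl9.

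Acta2, smooth muscle alpha actin and the usual marker of myofibroblasts (ENSMUSG00000035783, chromosome 19, 34241090 to 34255336, GRCm38), measured 2.33, 9.89 and 14.4 FPKM in the knockouts and 1.31, 1.09 and 2.43 FPKM in the controls. Knockouts 2 and 3 were far above every control, while knockout 1 lay just under control 3. The means were 8.87 ± 6.09 FPKM in knockouts and 1.61 ± 0.721 FPKM in controls (SD, n = 3), a ratio of 5.51, with a log2 difference of 1.69 (SE 0.54) on the log2(FPKM + 1) scale. These values rest on 62, 353 and 438 reads in the knockouts and 35, 31 and 72 reads in the controls. Without knockout 3 the ratio was 3.79, and without knockout 1 it was 7.54. In whole tissue, more cells that express a gene and more RNA per cell cannot be told apart.

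Myl9, the light chain whose phosphorylation starts contraction (chromosome 2, 156775420 to 156781658), had the same split among knockouts, with 2.93, 8.16 and 10.6 FPKM against 4.07, 4.08 and 4.35 FPKM in the controls. Knockout 1 was the lowest of the 6 libraries, and knockouts 2 and 3 were the highest. The log2 difference of 0.53 (SE 0.37) became 1.0 without knockout 1 and 0.22 without knockout 3.

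The other contractile members were near the limit of detection, and 0 of these 4 reached a mean of 0.5 FPKM. Actg2, the enteric smooth muscle actin, measured 0.0429, 0.256 and 1.05 FPKM in the knockouts and 0.214, 0.16 and 0.0773 FPKM in the controls. Its reads numbered 1, 8 and 28 in the knockouts and 5, 4 and 2 in the controls. Only knockout 3 stood clear of the other libraries.

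Myh11, the heavy chain that is the most specific marker of smooth muscle cells, measured 0.194, 0.158 and 0.593 FPKM in the knockouts and 0.289, 0.115 and 0.158 FPKM in the controls. Cnn1, which binds actin and restrains myosin, measured 0.22, 0 and 1.09 FPKM in the knockouts and 0.122, 0.0685 and 0 FPKM in the controls. For both genes knockout 3 was again the highest library, with 77 reads of Myh11 and 51 of Cnn1, against at most 33 and 9 reads in any other. Without knockout 3 the ratios of means were 0.994 for Actg2 and 0.936 for Myh11, in place of 2.99 and 1.68, and 1.73 for Cnn1 in place of 6.89.

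Tagln, an early marker of smooth muscle differentiation, measured 0.101, 0.477 and 0.324 FPKM in the knockouts and 0, 0.408 and 0.272 FPKM in the controls, with 0 to 19 reads per library. The groups overlapped throughout. Its value is uncertain for a further reason: 1241 of its 1988 exonic bases are also exonic in Gm48529, an antisense gene on the opposite strand, and 108 are exonic in Pcsk7, on that strand too. Gm48529 measured 0.158, 0.216 and 0.161 FPKM in the knockouts and 0.289, 0.271 and 0.0475 FPKM in the controls. Whether counting used strand, and how reads in both genes were treated, is stated nowhere in the labels, so reads of the pair cannot be told apart.

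**Figure D2:**
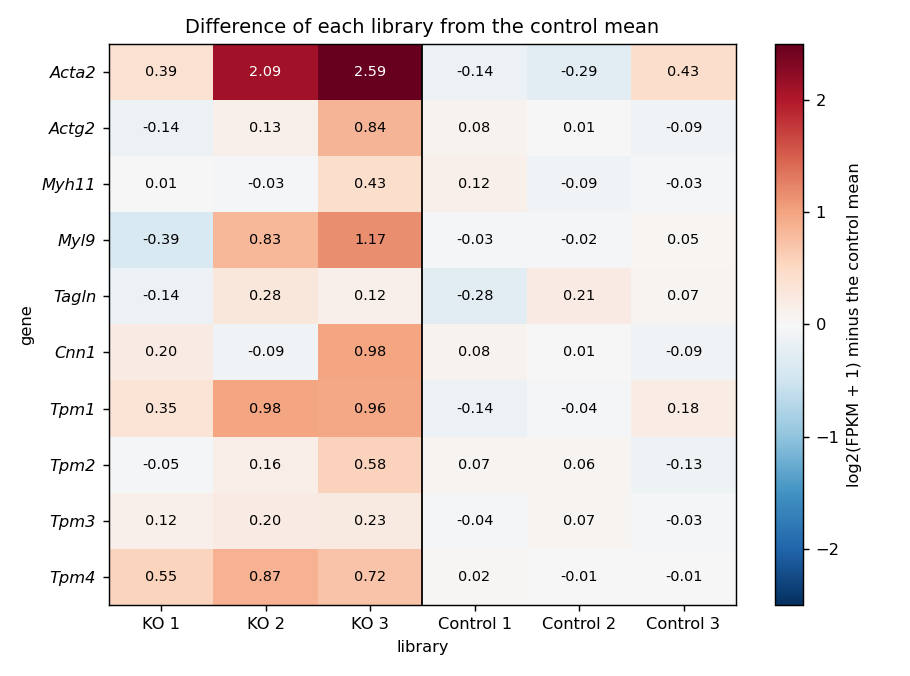
Difference of each library from the mean of the 3 controls in log2(FPKM + 1), for each gene (rows) and library (columns; knockouts left of the line, controls right); the colour of knockout 3 for Acta2 is at the end of the scale. Knockouts 2 and 3 reach 2.09 and 2.59 for Acta2, and knockout 1 stays at 0.39, below control 3 at 0.43; Tpm4 lies between 0.55 and 0.87 in the knockouts.

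Across the knockouts, knockout 1 was the lowest for 8 of the 10 members and knockout 3 the highest for 7. The exceptions for knockout 1 were Myh11 and Cnn1, which were lowest in knockout 2. The highest values of Tagln, Tpm1 and Tpm4 were in knockout 2. Among the better measured members, the SD was larger in the knockouts than in the controls for Myl9 (3.92 and 0.157 FPKM), Tpm4 (3.46 and 0.215 FPKM) and Tpm1 (2.72 and 0.776 FPKM), and close to it for Tpm3 (0.642 and 0.592 FPKM).

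Tropomyosins were the best measured members. Tpm4, a tropomyosin of the non-muscle cytoskeleton that is abundant in platelets (chromosome 8, 72134975 to 72153142), measured 26.9, 33.8 and 30.2 FPKM in the knockouts and 18.2, 17.9 and 17.8 FPKM in the controls. Every knockout exceeded every control, on 602 to 1492 reads per library. The means were 30.3 ± 3.46 and 18.0 ± 0.215 FPKM (SD, n = 3 each, knockouts and controls), a log2 difference of 0.72 (SE 0.11).

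Tpm1, which has muscle and non-muscle forms made by alternative splicing and promoter use (chromosome 9, 67022590 to 67049406), measured 7.66, 12.5 and 12.3 FPKM in the knockouts and 5.19, 5.63 and 6.70 FPKM in the controls. The groups were apart, and knockout 1 was the knockout nearest to the controls. The log2 difference was 0.76 (SE 0.19). The annotation lists 21 transcripts of Tpm1, and a value per gene does not say which of them were present.

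Tpm3, which also has muscle and non-muscle forms (chromosome 3, 90072649 to 90100902), was also apart between the groups, by less: 13.8, 14.7 and 15.1 FPKM in the knockouts and 12.3, 13.4 and 12.4 FPKM in the controls, a ratio of 1.15. Of its stretches of 50 bases, 23.2% also occur in the retrogene Tpm3-rs7, which was listed at 4.63 to 5.04 FPKM in the knockouts and 3.11 to 4.32 FPKM in the controls, so the authors' counting could split reads between them. For Tpm4 the share found in other genes was 15.7%, mostly in the pseudogene Gm7809, listed at or under 0.337 FPKM, and 134 of its 2203 exonic bases overlap the antisense gene Gm26586, listed at 0 in 5 libraries and at 0.0358 FPKM in control 2. For Acta2 and Myh11 it was 0.326% and 0.34%, and for Actg2, Myl9, Cnn1, Tpm1 and Tpm2 it was 0%.

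Tpm2, the beta tropomyosin of muscle (chromosome 4, 43514711 to 43523765), was the lowest of the 4 and overlapped, with 1.22, 1.56 and 2.43 FPKM in the knockouts and 1.42, 1.4 and 1.1 FPKM in the controls. Knockout 3 was its highest library, as for Acta2, Actg2, Myh11, Myl9, Cnn1 and Tpm3. In each library the order of levels was Tpm4, Tpm3, Tpm1 and Tpm2.

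Summed over the 4 genes, tropomyosin levels were 49.6, 62.5 and 59.9 FPKM in the knockouts and 37.1, 38.3 and 38.0 FPKM in the controls. Tpm4 made up 54.2%, 54.0% and 50.3% of the sum in the knockouts and 49.0%, 46.7% and 46.9% in the controls. The share of Tpm3 was 27.9%, 23.5% and 25.1% in the knockouts and 33.2%, 34.9% and 32.6% in the controls. These 2 shares did not overlap between the groups, while the shares of Tpm1 and Tpm2 overlapped. All are parts of the same sum, so they are not separate results. The share of Tpm3 was lower in the knockouts although its own mean was higher (14.5 FPKM against 12.7 FPKM in the controls). As the members were chosen with this contrast known, the shares are a description only.

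**Figure D3:**
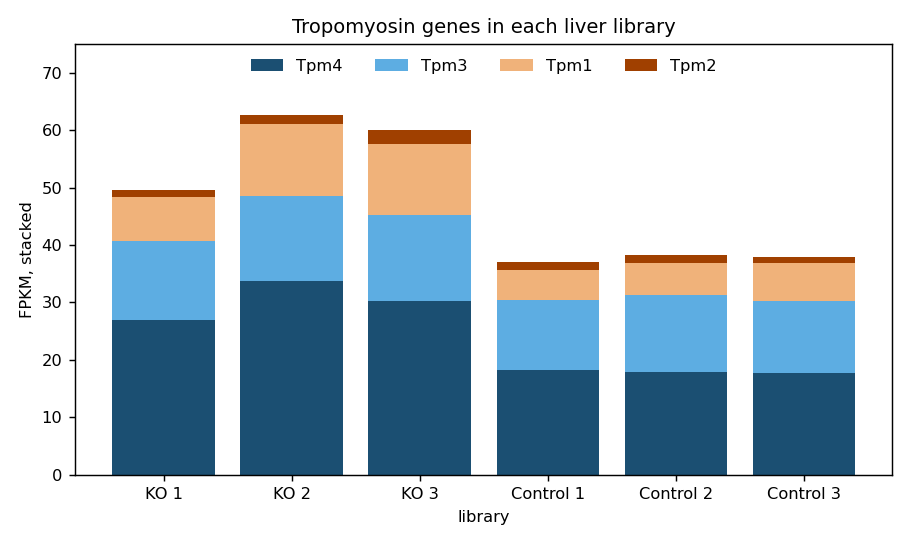
FPKM of Tpm4, Tpm3, Tpm1 and Tpm2 stacked from the bottom, for 3 knockout libraries (left) and 3 control libraries (right). The knockout stacks reach 49.6 to 62.5 FPKM and the control stacks 37.1 to 38.3 FPKM, and the Tpm4 segment accounts for most of the gap.

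Other genes of the same machinery were taken from 3 lists and tested by limma over all 12022 genes. None of 12 tested smooth muscle partners, 22 non-muscle actomyosin genes and 12 regulators and targets of SRF passed an adjusted p of 0.05 in any direction. At an unadjusted p under 0.05, 3 of the 12 partners, 8 of the 22 actomyosin genes and 4 of the 12 SRF genes were higher and 0 were lower, where 6.83% of all genes tested were higher and 7.06% lower. Median log2 differences of the lists were 0.20, 0.24 and 0.29, against -0.0081 over all genes tested. The log2 difference was above 0 in 33 of the 46 genes, and in 5786 of all 12022. These lists too were chosen with earlier results of these data known.

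Among the partners, Csrp1, a LIM protein of smooth muscle, measured 19.0, 30.7 and 30.0 FPKM in the knockouts and 9.61, 12.4 and 17.1 FPKM in the controls (log2 difference 0.98, limma adjusted p = 0.182). Mustn1 (7.46 ± 2.03 FPKM in knockouts, 3.88 ± 0.822 FPKM in controls; limma adjusted p = 0.186) and Ppp1r14a, an inhibitor of myosin phosphatase (3.47 ± 0.125 and 2.67 ± 0.457 FPKM; 0.332), were likewise apart. Desmin (Des), an intermediate filament of muscle and stellate cells, overlapped (2.57 ± 0.272 FPKM in knockouts and 1.82 ± 0.577 FPKM in controls). Those 8 partners not tested for their low level included Lmod1, Synm and Synpo2.

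In the non-muscle list the smallest p belonged to Zyx, a focal adhesion protein (6.92 ± 1.07 FPKM in knockouts, 4.53 ± 0.474 FPKM in controls), and to Myh10, a non-muscle myosin heavy chain (3.08 ± 0.568 and 1.54 ± 0.5 FPKM), each with a limma adjusted p of 0.181. Cnn2, a calponin outside muscle, and Myh9, the other main non-muscle heavy chain, followed at 0.204 and 0.210. In 10 of the 22 all knockouts lay above all controls, and in 0 below, beside 9.2% and 10.6% of all genes tested.

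Srf itself measured 5.06, 5.36 and 5.12 FPKM in the knockouts and 3.62, 4.14 and 4.6 FPKM in the controls, without overlap (log2 difference 0.28, SE 0.10, limma adjusted p = 0.296). Its coactivator gene Mkl2 lay lower in all knockouts, at 2.47 to 2.57 FPKM against 2.60 to 2.97 FPKM in the controls (log2 difference -0.11, limma adjusted p = 0.623), and was named after its values were seen. The targets Ctgf (9.37 ± 6.16 FPKM in knockouts and 2.98 ± 1.02 FPKM in controls), Cyr61 (11.5 ± 5.91 and 5.06 ± 3.67 FPKM) and Fhl1 (4.48 ± 1.32 and 2.76 ± 0.491 FPKM) overlapped. Another target, Egr1, named after its values were seen, overlapped with a lower mean in the knockouts (33.6 ± 24.1 and 58.2 ± 66.2 FPKM). Of the 12 genes tested in this list, 1 lay above all controls in every knockout and 1 below, beside 9.2% and 10.6% of all genes tested. The log2 difference was above 0 in 8 of the 12 and below 0 in 4. Myocd, the coactivator of smooth muscle cells, was at 0 in 5 libraries and at 0.0182 FPKM in knockout 3.

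**Figure D4:**
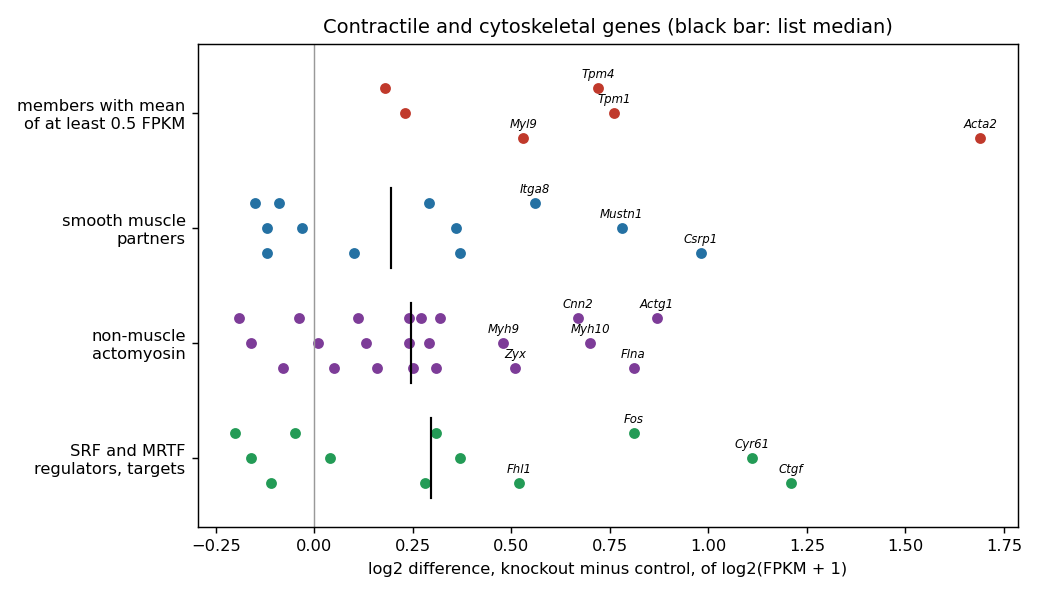
Log2 difference (knockout minus control, of log2(FPKM + 1)) of each tested gene, 1 point per gene, for the 6 members and the 3 lists; vertical offsets only separate points, and the black bars mark the list medians of 0.20, 0.24 and 0.29. Acta2 lies furthest to the right at 1.69, and 13 of the 46 list genes lie below 0.

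Lists of markers of other cells were set beside these genes, and no gene of any of them passed an adjusted p of 0.05 by limma. Of 12 mesothelial markers, 10 lay higher in every knockout than in any control and 0 were at 0 in all libraries. Among the 11 that were tested it was 9, beside 9.2% of all genes tested. Their sum was 333, 493 and 459 FPKM in the knockouts and 188, 224 and 288 FPKM in the controls. Without Krt8 and Krt18, which hepatocytes also express, it was 130, 223 and 177 FPKM in the knockouts and 8.54, 17.8 and 70.7 FPKM in the controls. Slpi, with the largest difference of the list, measured 35.8, 63.7 and 51.9 FPKM in the knockouts and 2.49, 3.70 and 12.5 FPKM in the controls (limma adjusted p = 0.107). Knockout 1 had the lowest sum of the knockouts and control 3 the highest of the controls, as for Acta2. Unlike for Acta2, knockout 1 lay above control 3 in both sums, and knockout 2 rather than knockout 3 was the highest library.

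Of 9 markers of portal fibroblasts, 5 lay higher in every knockout, all of them among the 8 tested (9.2% of all genes tested did), with sums of 29.8, 41.5 and 61.4 FPKM in the knockouts and 7.03, 14.4 and 27.1 FPKM in the controls. For both Acta2 and this sum, knockout 3 was the highest library, followed by knockout 2. Of 8 bile duct markers 4 lay higher in every knockout, 3 of them among the 5 tested, with sums of 27.1 to 36.6 FPKM in the knockouts and 16.0 to 19.2 FPKM in the controls. Krt19 is in this list and in the mesothelial one. The part of these cells in the levels of Acta2, Myl9 and the tropomyosins was not tested.

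The 14 stellate cell markers had sums of 140.2, 209.8 and 143 FPKM in the knockouts and 134, 143 and 169 FPKM in the controls. Their log2 difference was above 0 in 7 and below 0 in 7. In 1 of the 14 all knockouts lay above all controls, beside 9.2% of all genes tested. This was Cygb, a globin of stellate cells, named after its values were seen (7.37, 14.0 and 8.56 FPKM in the knockouts and 3.00, 3.96 and 6.81 FPKM in the controls). Dcn, the most abundant of the list, overlapped (33.2 ± 3.75 FPKM in knockouts and 29.1 ± 6.3 FPKM in controls). Col1a1, the collagen with the largest difference of that list, overlapped at 4.57, 13.0 and 8.09 FPKM in the knockouts and 0.934, 2.17 and 9.04 FPKM in the controls. Sums also overlapped for 9 macrophage markers, 9 endothelial markers, 9 platelet and megakaryocyte markers and 6 neutrophil markers. Within these lists 3 genes lay lower in every knockout, of which Stab2 and Gp1ba were named after their values were seen. Among tested genes this held for 2 of 8 endothelial markers, beside 10.6% of all genes tested. It held for 0 of the 2 platelet, 9 macrophage and 4 neutrophil markers tested. The endothelial genes were Cdh5 (4.36 to 4.87 FPKM in the knockouts, 5.54 to 6.31 FPKM in the controls, limma adjusted p = 0.202) and Stab2 (3.08 to 3.93 and 3.97 to 5.23 FPKM, limma adjusted p = 0.480). The platelet gene Gp1ba, not tested, was at or under 0.0734 FPKM in the knockouts and at least 0.0919 FPKM in the controls, on 1 to 9 reads per library. The platelet markers Gp1bb, Gp6 and Treml1 were at 0 in every library, and Pf4 was the most abundant at 3.37 ± 1.11 FPKM in knockouts and 2.66 ± 0.702 FPKM in controls. Genes of skeletal and heart muscle were near 0, with 22 genes summing to 1.93 to 3.89 FPKM in the knockouts and 2.30 to 3.37 FPKM in the controls, and Myh2, Myh6, Myl2, Tnnc2 and Mb at 0 throughout.

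**Figure D5:**
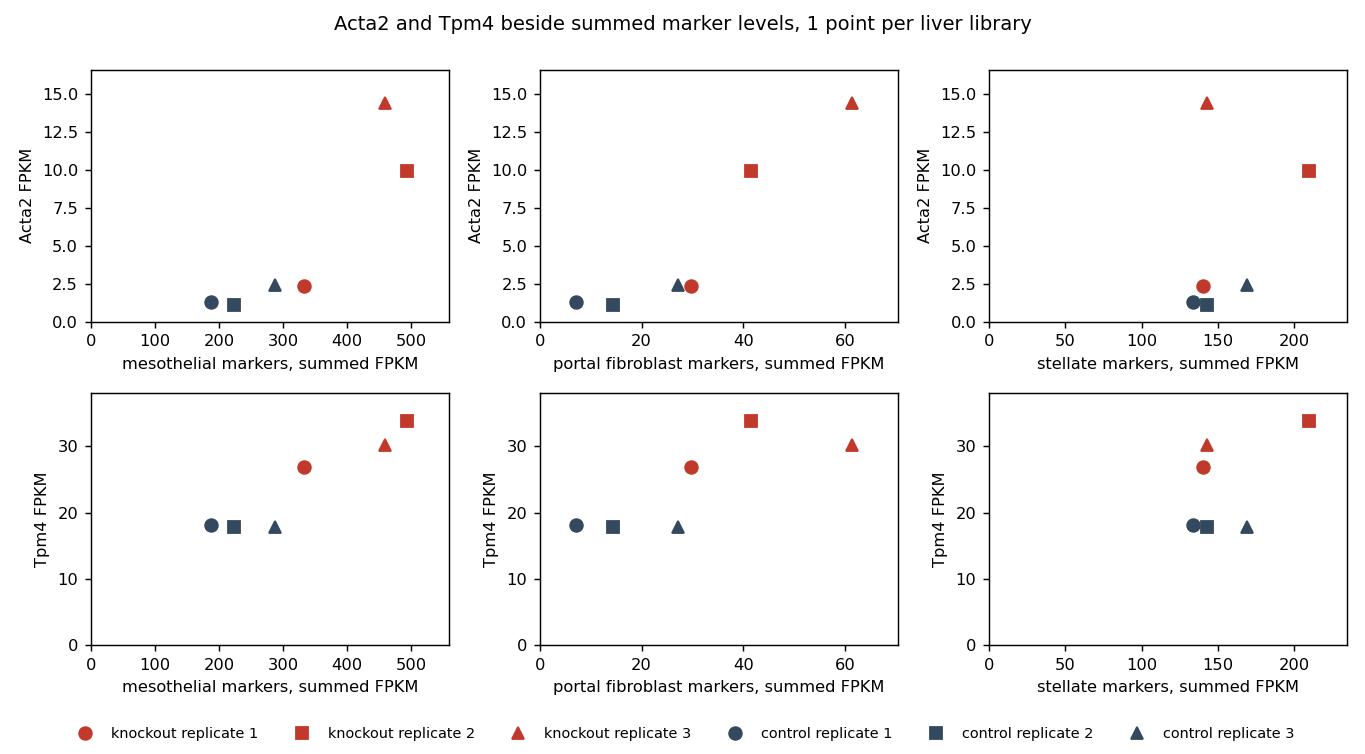
FPKM of Acta2 (top) and Tpm4 (bottom) against the summed FPKM of mesothelial, portal fibroblast and stellate cell markers, 1 point per library, knockouts in red and controls in dark blue. Knockout 1 and control 3 lie close together in the Acta2 panels at 2.33 and 2.43 FPKM, while in the Tpm4 panels all knockouts lie at 26.9 FPKM or more and all controls at 18.2 FPKM or less.

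Among 10074 other genes averaging 1 FPKM or more, those whose log2(FPKM + 1) ran most like that of Acta2 over the 6 libraries were Man1a2, Ccdc125, Cdc42ep3, Cnnm2 and Cndp2, with Pearson r of 0.978 to 0.991. For Tpm4 they were Rfwd3, Elac2, Peg13, Cox11 and Myo5b, with r of 0.986 to 0.996. None of these 10 is a contractile gene of the lists. The 6 points share their libraries and the difference between groups, so these r are a description only.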

How the data were processed

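Messenger RNA of whole liver was sequenced in 3 libraries from knockout mice and 3 from control mice. Per the submitters' processing notes, HISAT2 2.0.5, featureCounts 1.5.0-p3 and GRCm38 were used; the sources used here give no settings, strand or annotation. The authors deposited FPKM per gene and library. FPKM times gene length gave whole reads, within 0.1 read, for 100% of values above 0, and the library divisors followed the median ratio of reads, with factors of 0.911 to 1.22 in the knockouts and 0.914 to 1.01 in the controls. At these depths 3 reads in a gene of 1 kilobase are worth 0.15 to 0.201 FPKM, and a gene below that can appear as 0; this limit covers counting error only.

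The 12022 genes averaging 0.5 FPKM or more were fitted on log2(FPKM + 1) with limma 3.58.1 (eBayes with trend) in R 4.3.3, knockout minus control, two-sided, with Benjamini-Hochberg adjustment over all of them. The pseudocount of 1 understates differences of low genes. The fit was tested on simulated data. Nothing in the labels says how the livers behind the 6 libraries relate, so p-values reflect only how these libraries vary, which may be technical.

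Members and gene lists were chosen with earlier results of these data known. The rule named all members, the 4 genes of smallest p of each of 3 lists, and of each of 10 marker lists the most abundant gene and that with the largest difference. Only some of these marker genes are printed, so they do not stand for their lists. Listed genes outside this rule are marked where their groups are compared. Libraries of the same number deviated together from their group means (r over genes 0.315, 0.164 and 0.101), so the numbers may pair the livers, by the values alone; different numbers reached 0.110. Without a block 3 genes passed over all genes, with the replicate number as a block 0. Stretches of 50 bases were compared among GENCODE M21 transcripts (GRCm38), and exons were taken from the same annotation. Promoters of 7 of the 10 members were in the RefSeq table (GRCm38.p6); Actg2, Myh11 and Tagln were not matched.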

Additional observations from a re-analysis of the deposited data

How the results depend on the processing

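Fits were repeated under 14 alternatives. The count of genes passing over all genes was 3 as reported, 1 with a pseudocount of 0.1, 0 with no filter, 0 with the replicate number as a block, 15 with limma voom on recovered reads, and 0 to 58 when single libraries were left out (58 without control 3, 29 without knockout 2, 0 without control 2 or knockout 1); the cause was not tested. In none of these fits did a member or a gene of the 3 lists pass. The median log2 difference of the 10 members was 0.32, became 0.63 with the pseudocount of 0.1, which lowers the weight of the pseudocount in the 4 members of low level, and was 0.11 to 0.46 with single libraries left out. With the replicate block it was the same 0.32 by construction.

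Single members kept their direction in 102 of 106 refits, which include the replicate block, where the difference is unchanged by construction. The exceptions were Actg2 and Myh11 without knockout 3 (-0.01 each) and Tagln without control 1 and without knockout 2 (lowest -0.05). All refits reuse the same 6 libraries, and the members were chosen with this contrast known, so nothing is read from the count. Over the refits the log2 difference ranged from 1.24 to 2.34 for Acta2, 0.22 to 1.0 for Myl9, 0.65 to 0.97 for Tpm1, 0.16 to 0.32 for Tpm3 and 0.64 to 0.85 for Tpm4. Scaling by total reads shifted the median of all genes by 0.105 and left the same 3 members apart.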
